A study of Mus musculus with 19 samples.

Results

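Calcineurin is the phosphatase that calcium and calmodulin switch on. It is a dimer of a catalytic A subunit, encoded by Ppp3ca, Ppp3cb or Ppp3cc, and a regulatory B subunit, CnB1, encoded in the brain by Ppp3r1; without the B subunit the enzyme is not active. The regulators of calcineurin, Rcan1, Rcan2 and Rcan3, bind the catalytic subunit and restrain it, and Akap5 is a scaffold that holds calcineurin at the synapse. Active calcineurin removes phosphate from the NFAT, CRTC and MEF2 transcription regulators, and Rcan1 is itself a classical target of NFAT through its downstream start.

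The genes described here are these 8, taken by symbol from the deposited count table, in which all 8 were found among 14443 genes. The question they address is whether other subunits or regulators of calcineurin differ where Ppp3r1 is lower. RNA was sequenced from mouse locus coeruleus, the brainstem nucleus of noradrenergic neurons that promote waking. CnB1KO_SD6 libraries (n = 5) came from ABC-CnB1KO mice deprived of sleep for 6 h, and WT_SD6 libraries (n = 5) from ABC-Ctrl mice deprived for 6 h. CnB1KO_S6 libraries (n = 5) came from ABC-CnB1KO mice that slept normally, and WT_S6 libraries (n = 4) from ABC-Ctrl mice that slept normally. The protocol makes 1 statement for both genotypes, that tissue was taken 4 weeks after injection of AAV-hSyn-Cre, a virus that carries Cre recombinase under a promoter active in neurons. It gives neither the exons that Cre removes nor the sex and age of the mice, and "ABC" is not spelled out. The nucleus was dissected from frozen sections of 200 µm, so glia, vessels and neighbouring neurons were sequenced with it. Cre was directed at neurons by that promoter, and whether it also acted in other cells was not measured here.

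Total counts per library ran from 3887298 to 7903253, and the shallowest library was number 13, in CnB1KO_S6 (libraries are numbered as in the deposited tables). All 8 noradrenergic markers listed, among them Th, Dbh and Slc6a2, had counts in every library. Their summed CPM (counts scaled to a common library total by TMM) ranged over 1216 to 1615 in CnB1KO_SD6 libraries and 648 to 1455 in WT_SD6 libraries after deprivation, and over 982 to 1648 in CnB1KO_S6 libraries and 984 to 1582 in WT_S6 libraries after sleep. No pair of libraries within a group agreed as closely as counting error alone allows. Tests are edgeR's quasi-likelihood test over all 14443 genes with Benjamini-Hochberg adjustment. A gene passed at an adjusted p under 0.05, and log2 changes are on the scale of CPM. FPKM (fragments per kilobase of exon, scaled to the mapped total) are the authors' and serve to compare levels between genes.

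The starts of Ppp3r1 and of Rcan1 are shown because Ppp3r1 is the targeted gene and because Rcan1 has a pair of starts that a count per gene cannot separate. Promoter sequences were available from RefSeq (GRCm38.p6) for 6 of the 8 genes, as 250 bases before and 50 after the start; Ppp3ca and Ppp3cc had no entry. Motifs were searched on both strands: GGAAA, the core that NFAT binds, TGACGTCA, the full cyclic AMP response element, and TGANTCA, the AP-1 element. Capitals mark the matches, and the Ppp3r1 and upstream Rcan1 windows held none.
Ppp3r1, chr11:17159048-17159347, plus strand: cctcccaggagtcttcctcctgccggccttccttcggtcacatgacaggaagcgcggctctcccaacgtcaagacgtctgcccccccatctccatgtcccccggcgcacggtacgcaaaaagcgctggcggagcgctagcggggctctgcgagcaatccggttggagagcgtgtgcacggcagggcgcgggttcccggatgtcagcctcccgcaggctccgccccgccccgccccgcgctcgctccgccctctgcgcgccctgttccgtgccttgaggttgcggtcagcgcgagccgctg
Rcan1 upstream start, chr16:92466120-92466419, minus strand: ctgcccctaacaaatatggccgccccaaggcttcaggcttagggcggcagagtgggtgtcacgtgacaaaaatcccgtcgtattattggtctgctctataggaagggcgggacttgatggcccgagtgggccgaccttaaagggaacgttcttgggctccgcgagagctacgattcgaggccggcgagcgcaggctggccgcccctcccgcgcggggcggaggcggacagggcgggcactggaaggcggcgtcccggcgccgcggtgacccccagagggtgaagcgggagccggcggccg
Rcan1 downstream start, chr16:92400029-92400328, minus strand: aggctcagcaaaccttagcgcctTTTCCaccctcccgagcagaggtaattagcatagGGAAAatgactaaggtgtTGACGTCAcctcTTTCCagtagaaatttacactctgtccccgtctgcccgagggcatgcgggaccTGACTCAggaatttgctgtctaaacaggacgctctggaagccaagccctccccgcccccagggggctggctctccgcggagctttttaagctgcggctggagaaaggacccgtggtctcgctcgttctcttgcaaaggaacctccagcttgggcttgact

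The downstream Rcan1 window held 3 matches to GGAAA, 1 to TGACGTCA and 1 to TGANTCA, and it had 14 CpG dinucleotides, against 33 in the upstream window. GGAAA occurred in 61.3% of 32851 promoters of the same length, TGACGTCA in 1.79% and TGANTCA in 7.81%. These matches are a description of letters. Neither the counts nor the FPKM used here tell which start a fragment came from.

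Ppp3r1 was the check of the genotype labels, and it was lower in CnB1KO. The gene (ENSMUSG00000033953) lies on the plus strand of chromosome 11 from 17159263 to 17200375 on GRCm38, and its counts cover all exons, deleted or not. Of its 3228 exon bases 462 overlap Wdr92, a protein-coding gene on the same strand, and how reads there were assigned was not given in the sources used here. After deprivation its level was 54.8, 47.5, 50.2, 50.1 and 53.4 FPKM in CnB1KO_SD6 (861, 860, 908, 733 and 688 counts), against 62.3, 58.4, 57.9, 63.9 and 54.4 FPKM in WT_SD6 (1073, 1059, 990, 909 and 1102 counts). After sleep it was 48.2, 47.7, 55.4, 46.9 and 46.7 FPKM in CnB1KO_S6 (876, 783, 558, 876 and 772 counts), against 63.0, 64.2, 60.0 and 64.4 FPKM in WT_S6 (1026, 1056, 1084 and 1065 counts). After sleep every CnB1KO library lay below every WT library; after deprivation 4 of 5 did in FPKM and 3 of 5 in CPM.

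Averaged over both sleep states, Ppp3r1 was 16.5% lower in CnB1KO than in WT (log2 change −0.26, 95% interval −0.35 to −0.17, edgeR adjusted p = 0.00758). It was 1 of 447 genes that passed in this comparison, which are 3.09% of all genes tested. No other of the 8 genes passed there, and at an unadjusted p under 0.05 there were 2 of the 8, Ppp3r1 and Rcan1, where 23.1% of all genes had one. In bulk tissue, fewer cells of a type and less RNA per cell cannot be told apart. The mean level in CnB1KO remained at 51.2 ± 2.89 FPKM after deprivation, against 59.4 ± 3.75 FPKM in WT, and at 49.0 ± 3.63 FPKM after sleep, against 62.9 ± 2.03 FPKM in WT (SD, n = 5, 5, 5 and 4).

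Within a single sleep state the difference in Ppp3r1 did not pass in edgeR. The log2 change was −0.20 after deprivation (95% interval −0.33 to −0.07, edgeR adjusted p = 0.177) and −0.32 after sleep (−0.46 to −0.19, edgeR adjusted p = 0.104). In these comparisons 19 genes (0.132%) and 7 genes (0.0485%) of all tested passed; of the 8 genes none did in edgeR, and DESeq2 called Ppp3r1 after sleep. In each, 3 of the 8 had an unadjusted p under 0.05, against 15.2% of all genes after deprivation and 10.1% after sleep. By limma on log2(FPKM + 1), Ppp3r1 passed after sleep (log2 change −0.36, limma adjusted p = 0.0156; 0.0480% of features passed) and not after deprivation (−0.21, limma adjusted p = 0.176; 0.0427%). The difference between the sleep states was itself tested and did not pass (interaction log2 0.12, 95% interval −0.06 to 0.31, edgeR adjusted p = 1.0).

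Library 13 stood apart in Ppp3r1. Among the CnB1KO_S6 libraries it had the highest FPKM of the gene, the lowest count, and a summed CPM of neuron markers of 2806, against 1867 to 2069 in the other four. Without it the sleep comparison passed (log2 change −0.39, edgeR adjusted p = 0.00233), and the average was −0.30 (edgeR adjusted p = 0.000381). The Ppp3r1 count also followed depth less steeply than most: within groups its log2 count had a slope of 0.73 on the log2 library total, against a median of 1.15 over all genes. With the log2 library total as a covariate, Ppp3r1 passed after deprivation (log2 change −0.25, edgeR adjusted p = 0.00332) and after sleep (−0.37, edgeR adjusted p = 6.5e-05).

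Among markers of other cells, 4 of 6 endothelium markers rose in CnB1KO over both sleep states, where 3.09% of all genes passed, and their summed CPM after deprivation was 363 to 473 in CnB1KO_SD6 and 284 to 389 in WT_SD6. After sleep it was 376 to 473 in CnB1KO_S6 and 289 to 348 in WT_S6. Of 9 oligodendrocyte markers 2 rose, with a summed CPM after deprivation of 1494 to 1839 in CnB1KO_SD6 and 1374 to 1559 in WT_SD6, and after sleep of 1467 to 2283 in CnB1KO_S6 and 1485 to 1701 in WT_S6. None of these markers was at 0 in any library, and none of the 8 general neuron markers passed. Of 7 microglia markers 2 rose as well, and of 7 astrocyte markers none passed. None of the 8 cerebellar granule cell markers passed, but their median log2 change in CnB1KO was −0.74 averaged and −0.94 after deprivation. Their summed CPM had a median of 459 (151 to 1407) in CnB1KO_SD6 and 1346 (198 to 2084) in WT_SD6, and of 577 (197 to 1255) in CnB1KO_S6 and 936 (418 to 1669) in WT_S6. With an endothelium score as a covariate the averaged log2 change of Ppp3r1 was −0.16 and did not pass (edgeR adjusted p = 0.289), and with an oligodendrocyte score it was −0.29 and did not pass (edgeR adjusted p = 0.0623). With a neuron score it was −0.31 (edgeR adjusted p = 2.41e-05), and with a granule cell score −0.26 (edgeR adjusted p = 0.0128). The endothelium markers themselves differed with genotype, so a fit with their score cannot tell the score and genotype apart for any gene. With that score 8 of all genes tested passed in the averaged comparison, against 447 without it. The score was chosen after seeing the data.

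**Figure D1:**
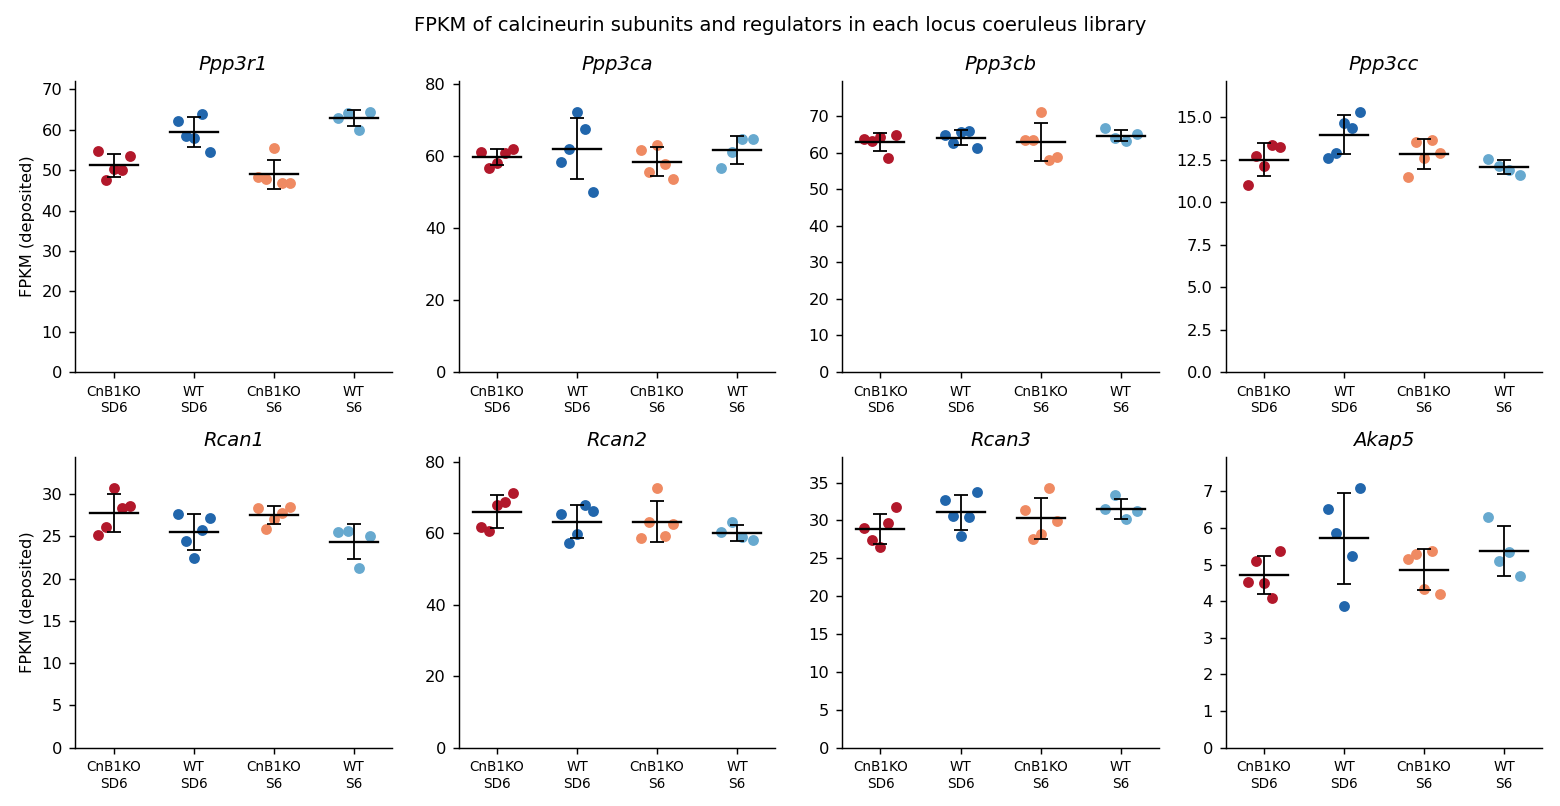
Deposited FPKM of the 8 genes (vertical axes, each from 0) in every library of the 4 groups; points are libraries, and bars give the mean and SD. Ppp3r1 averages 51.2 and 49.0 FPKM in the CnB1KO groups and 59.4 and 62.9 FPKM in the WT groups, while for Ppp3ca, Ppp3cb and Rcan2 the points of all groups share 1 range.

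**Figure D2:**
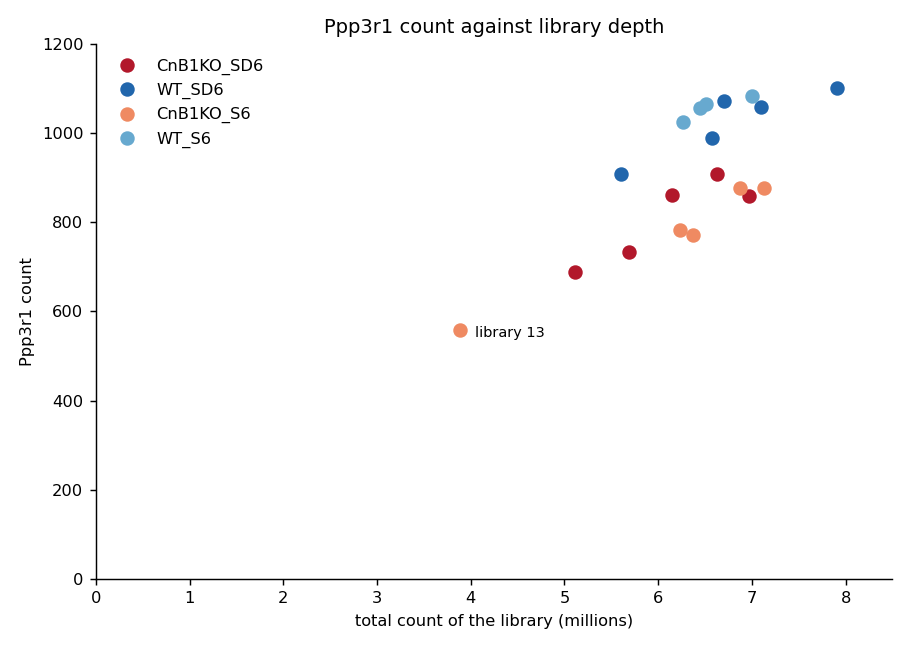
Ppp3r1 count of each library (vertical axis) against the library's total count (horizontal axis), coloured by group. CnB1KO libraries have 558 to 908 counts and WT libraries 909 to 1102, and the CnB1KO_S6 library labelled 13 has both the lowest total and the lowest count. Scaled to CPM, the genotypes overlap after deprivation, at 123 to 141 in CnB1KO_SD6 and 136 to 165 in WT_SD6.

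By level, the 8 genes fell into an upper set and a lower one. The median over the 19 libraries was 63.7 FPKM for Ppp3cb, 62.5 for Rcan2, 61.0 for Ppp3ca and 54.8 for Ppp3r1. It was 30.4 FPKM for Rcan3, 26.1 for Rcan1, 12.7 for Ppp3cc and 5.14 for Akap5. Ppp3cb exceeded Rcan2 in 10 of 19 libraries and Rcan2 exceeded Ppp3ca in 14, so the order of these neighbours was not fixed, whereas Ppp3r1 exceeded Rcan3 in all 19. Ppp3r2, the B subunit known from testis, was not in the count table and was listed at a median of 0.386 FPKM (0.111 to 0.579).

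None of the catalytic subunits passed in a comparison of CnB1KO with WT. Ppp3ca, which encodes the Aα subunit abundant in neurons (chromosome 3, 136670124 to 136937727, plus strand), averaged 59.7 ± 2.32 FPKM in CnB1KO_SD6, 62.0 ± 8.48 in WT_SD6, 58.4 ± 4.02 in CnB1KO_S6 and 61.8 ± 3.88 in WT_S6. Its log2 change over both sleep states was −0.06 (95% interval −0.18 to 0.05, edgeR adjusted p = 0.51). Ppp3cb, which encodes the Aβ subunit (chromosome 14, 20499364 to 20546573, minus strand), averaged 62.9 ± 2.46 FPKM in CnB1KO_SD6, 64.0 ± 2.04 in WT_SD6, 62.9 ± 5.17 in CnB1KO_S6 and 64.7 ± 1.52 in WT_S6. Its log2 change was 0.02 (−0.06 to 0.10, edgeR adjusted p = 0.793). These intervals leave room for Ppp3ca from 11.7% lower to 3.83% higher in CnB1KO, and for Ppp3cb from 4.18% lower to 7.15% higher.

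Ppp3cc, which encodes the Aγ subunit best known from testis (chromosome 14, 70217865 to 70289471, minus strand), passed in no comparison. It measured 10.99, 12.7, 12.1, 13.4 and 13.3 FPKM in CnB1KO_SD6 (153, 195, 189, 160 and 137 counts), against 12.6, 12.9, 14.7, 14.4 and 15.3 FPKM in WT_SD6 (185, 199, 201, 175 and 268 counts). In sleeping mice it measured 11.5, 13.5, 12.6, 13.7 and 12.9 FPKM in CnB1KO_S6 (191, 191, 102, 211 and 183 counts), against 12.6, 12.2, 11.9 and 11.6 FPKM in WT_S6 (166, 172, 185 and 155 counts). WT_SD6 lay above WT_S6 without overlap, in FPKM by a margin of 12.63 to 12.57. Between these groups 5.21% of all genes did not overlap in CPM and 4.21% of features in FPKM. CnB1KO_S6 lay above WT_S6 without overlap in CPM but not in FPKM, where 1 library fell below.

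The knockout differences of Ppp3cc had opposite signs and did not pass. The log2 change was −0.15 after deprivation (95% interval −0.28 to −0.02, edgeR adjusted p = 0.266) and 0.16 after sleep (0.02 to 0.30, edgeR adjusted p = 0.437), with an average of 0.00 (−0.09 to 0.10). The interaction was −0.31 (−0.50 to −0.12) and did not pass either (edgeR adjusted p = 1.0). No gene passed the interaction in edgeR (0% of all tested), DESeq2 called 1 gene and limma voom 0. In edgeR 287 genes, 1.99% of all tested, had an unadjusted p under 0.05, with Ppp3cc alone among the 8. Ppp3cc was the only one of the 8 besides the targeted Ppp3r1 whose CPM did not overlap between genotypes after sleep. With Ppp3r1 counted that is 2 of 8, against a background of 4.32% of all genes. After deprivation it was 0 of 8 against 2.05%. The exons of Ppp3cc overlap an antisense gene, Gm49417, by 91 bases; the libraries carry no strand, so reads there cannot be assigned.

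The make-up of the calcineurin transcripts can be read from FPKM, which is per length. The ratio of Ppp3r1 to the sum of Ppp3ca, Ppp3cb and Ppp3cc was 0.404, 0.359, 0.373, 0.378 and 0.382 in CnB1KO_SD6, against 0.459, 0.425, 0.380, 0.433 and 0.430 in WT_SD6. It was 0.353, 0.360, 0.377, 0.362 and 0.372 in CnB1KO_S6, against 0.464, 0.468, 0.429 and 0.455 in WT_S6. The CnB1KO mean was 0.891 of the WT mean after deprivation and 0.804 of it after sleep. In this ratio library 13 was the highest of CnB1KO_S6, at 0.377 against at most 0.372 in the others. It lay inside the range of 0.353 to 0.404 of the other CnB1KO libraries of both sleep states. The ratio is given as a description, since it follows from the lower Ppp3r1.

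The catalytic sum itself was 135 ± 3.03 FPKM in CnB1KO_SD6, 140 ± 10.2 in WT_SD6, 134 ± 8.18 in CnB1KO_S6 and 138 ± 2.56 in WT_S6. Ppp3ca made up 44.2%, 44.1%, 43.5% and 44.6% of it in the same order of groups, and Ppp3cb 46.6%, 45.8%, 46.9% and 46.7%. The share of Ppp3cc was 9.25 ± 0.743% in CnB1KO_SD6, 10.03 ± 1.17% in WT_SD6, 9.61 ± 1.03% in CnB1KO_S6 and 8.72 ± 0.447% in WT_S6. The mean shares of all 3 catalytic subunits thus lay close together in the 4 groups.

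**Figure D3:**
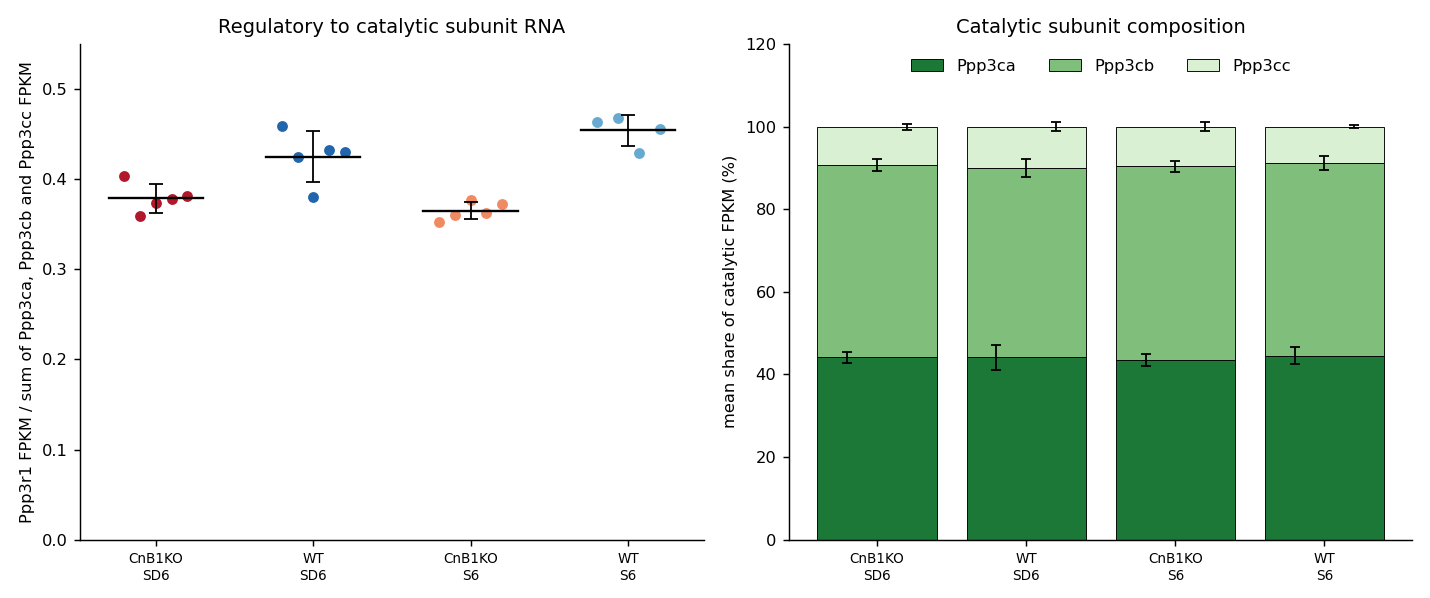
Left, ratio of Ppp3r1 FPKM to the summed FPKM of Ppp3ca, Ppp3cb and Ppp3cc in each library, with mean and SD by group; right, mean share in percent of each catalytic subunit in their summed FPKM, with SD. CnB1KO_S6 libraries sit at 0.353 to 0.377, below all WT_S6 libraries at 0.429 to 0.468, while the stacked shares differ little between groups.

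Among the regulators, Rcan1 came nearest to passing. It encodes the inducible calcineurin inhibitor (chromosome 16, 92391953 to 92470867, minus strand). Its level was 25.2, 26.1, 30.7, 28.3 and 28.6 FPKM in CnB1KO_SD6 (411, 482, 547, 420 and 384 counts), against 27.7, 24.5, 22.4, 25.8 and 27.1 FPKM in WT_SD6 (488, 456, 384, 372 and 569 counts). In sleeping mice it was 28.3, 25.8, 27.1, 27.8 and 28.5 FPKM in CnB1KO_S6 (509, 426, 271, 516 and 474 counts), against 25.5, 25.7, 21.3 and 25.0 FPKM in WT_S6 (425, 443, 397 and 424 counts). After sleep the FPKM of the genotypes did not overlap, by a margin of 25.8 to 25.7, and 4 of 5 CnB1KO_S6 libraries were above all WT_S6 libraries in CPM. After deprivation 3 of 5 were above.

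The averaged log2 change of Rcan1 in CnB1KO was 0.15 (95% interval 0.06 to 0.25), in the direction opposite to Ppp3r1, and it did not pass (edgeR adjusted p = 0.0673). By limma on log2(FPKM + 1), where 0.737% of features passed in the averaged comparison, Ppp3r1 was again the 1 gene of 8 called (log2 change −0.28, limma adjusted p = 0.00223), and the limma adjusted p of Rcan1 was 0.118. Of 34 alternative settings it passed in 1, without CnB1KO_SD6 library 16 (edgeR adjusted p = 0.0358). With an endothelium score as a covariate the log2 change of Rcan1 was 0.23 (edgeR adjusted p = 0.272), and with an oligodendrocyte score 0.12 (edgeR adjusted p = 0.655). Rcan1 was the only one of the 8 besides the targeted Ppp3r1 whose FPKM did not overlap between genotypes after sleep. With Ppp3r1 counted that is 2 of 8, against 3.70% of features, and after deprivation it was 0 of 8 against 1.77%.

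Rcan2 and Rcan3, the other calcineurin inhibitors, did not pass. Rcan2 (chromosome 17, 43801351 to 44039516, plus strand) averaged 66.0 ± 4.61 FPKM in CnB1KO_SD6, 63.2 ± 4.54 in WT_SD6, 63.2 ± 5.62 in CnB1KO_S6 and 60.04 ± 2.203 in WT_S6, and its averaged log2 change in CnB1KO was 0.09 (95% interval −0.03 to 0.20, edgeR adjusted p = 0.354). Rcan3 (chromosome 4, 135412308 to 135433853, minus strand) averaged 28.9 ± 2.04 FPKM in CnB1KO_SD6, 31.1 ± 2.26 in WT_SD6, 30.3 ± 2.71 in CnB1KO_S6 and 31.6 ± 1.31 in WT_S6, with a log2 change of −0.07 (−0.16 to 0.01, edgeR adjusted p = 0.248). Of its exon bases 44 are shared with the microRNA gene Mir700 on the same strand. Of the summed Rcan FPKM, Rcan1 made up 22.6%, 21.3%, 22.7% and 21.0% in CnB1KO_SD6, WT_SD6, CnB1KO_S6 and WT_S6, and Rcan3 23.6%, 25.9%, 25.0% and 27.2%. The sum of the Rcan genes was 2.40 ± 0.167 times the Ppp3r1 level in CnB1KO_SD6, 2.02 ± 0.178 times in WT_SD6, 2.48 ± 0.115 times in CnB1KO_S6 and 1.84 ± 0.0522 times in WT_S6. This ratio is also a description, since it follows mostly from the lower Ppp3r1. The CnB1KO mean of the Rcan sum itself was 1.02 of the WT mean after deprivation and 1.04 of it after sleep.

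Akap5, the scaffold that anchors calcineurin beside protein kinase A (chromosome 12, 76324891 to 76334153, plus strand), had the lowest FPKM of the 8 genes. Its mean was 4.72 ± 0.513 FPKM in CnB1KO_SD6, 5.71 ± 1.25 in WT_SD6, 4.87 ± 0.563 in CnB1KO_S6 and 5.36 ± 0.687 in WT_S6. The averaged log2 change in CnB1KO was −0.12 (95% interval −0.29 to 0.04, edgeR adjusted p = 0.346), and after deprivation alone it was −0.21 (−0.44 to 0.02, edgeR adjusted p = 0.359). The WT_SD6 range of 3.86 to 7.09 FPKM held all CnB1KO_SD6 values of 4.08 to 5.37 FPKM.

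Taking the 7 genes other than Ppp3r1, the median log2 change in CnB1KO over both sleep states was 0.00 and the range −0.12 to 0.15, with 4 values above 0 and 3 below. The median over all genes tested was 0.01.

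**Figure D4:**
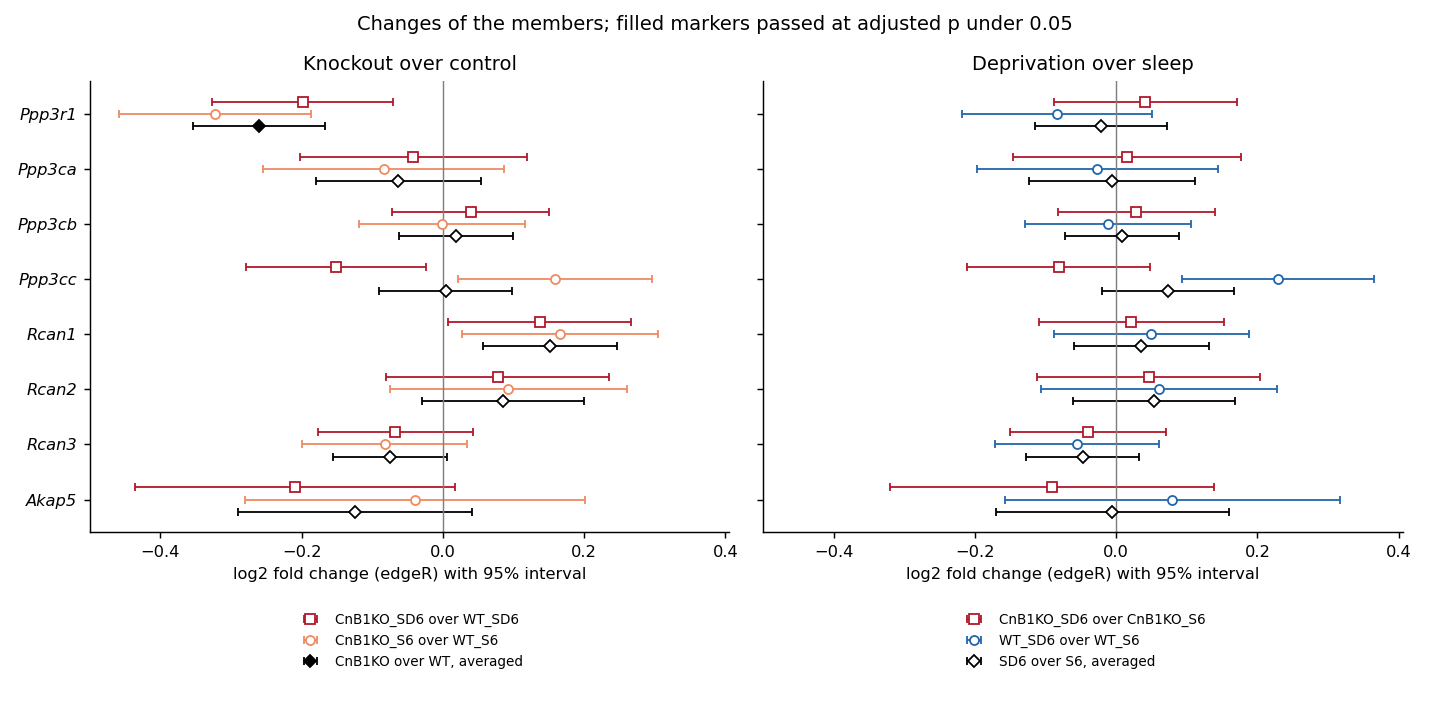
Log2 fold change with its 95% interval for each of the 8 genes (rows), knockout over control on the left and deprivation over sleep on the right; a filled marker is an adjusted p under 0.05 in edgeR. The averaged Ppp3r1 change of −0.26 is the filled marker, and Rcan1 at 0.15 is the value next in size among the averages.

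None of the 8 genes passed in a comparison of deprivation with sleep. Of all genes tested 0.692% passed in CnB1KO, 1.14% in WT and 4.69% in the average of both; the count for the 8 was 0 in edgeR, DESeq2, limma voom or limma on FPKM (where 0.374%, 0.304% and 2.23% of features did), and at an unadjusted p under 0.05 there were 0, 1 and 0, against 9.69%, 11.6% and 17.2% of all genes. Ppp3r1 had a log2 change of 0.04 in CnB1KO (95% interval −0.09 to 0.17, edgeR adjusted p = 0.986) and −0.08 in WT (−0.22 to 0.05, edgeR adjusted p = 0.711). Rcan1 had 0.02 in CnB1KO (−0.11 to 0.15, edgeR adjusted p = 1.0) and 0.05 in WT (−0.09 to 0.19, edgeR adjusted p = 0.868). The 1 gene under an unadjusted p of 0.05 was Ppp3cc in WT, with a log2 change of 0.23 (0.09 to 0.36, edgeR adjusted p = 0.106), against −0.08 in CnB1KO (−0.21 to 0.05, edgeR adjusted p = 0.841). It was also the 1 gene of 8 whose WT groups did not overlap, where 5.21% of all genes did not in CPM and 4.21% of features in FPKM. In CnB1KO it was 0 of 8, against 2.66% in CPM and 2.03% in FPKM.

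The wider calcineurin pathway was followed in a list of 31 genes, of which 28 had counts. Over both sleep states 1 of the 28 rose in CnB1KO and 1 fell, with a median log2 change of 0.00, where 3.09% of all genes passed (272 higher, 175 lower). In the other 6 comparisons none of the 28 passed in edgeR. Both that passed are transcription factors on which calcineurin acts. Nfatc2, an NFAT factor, averaged 14.8 ± 0.648 FPKM in CnB1KO_SD6, 12.1 ± 1.62 in WT_SD6, 14.7 ± 1.19 in CnB1KO_S6 and 13.4 ± 1.01 in WT_S6 (log2 change 0.23, 95% interval 0.11 to 0.35, edgeR adjusted p = 0.0393). Mef2c, a MEF2 factor of neurons that is also made in endothelium and microglia, averaged 9.36 ± 1.67 FPKM in CnB1KO_SD6, 12.05 ± 1.85 in WT_SD6, 9.19 ± 2.51 in CnB1KO_S6 and 11.7 ± 1.39 in WT_S6 (log2 change −0.37, −0.58 to −0.17, edgeR adjusted p = 0.0468). For both genes the values of the genotypes overlapped in each sleep state.

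These calls lay close to the threshold. Leaving out 1 library at a time, Mef2c was no longer called in 14 of 19 cases (edgeR adjusted p 0.0205 to 0.12) and Nfatc2 in 13 of 19 (0.0164 to 0.104); the calls held without library 2, 6, 10, 14 or 16 for both, and without library 8 for Nfatc2. Neither passed by limma on log2(FPKM + 1), where the adjusted p was 0.137 for Mef2c and 0.069 for Nfatc2. With an endothelium score as a covariate the log2 change was −0.50 for Mef2c (edgeR adjusted p = 0.272) and 0.27 for Nfatc2 (edgeR adjusted p = 0.28). With an oligodendrocyte score it was −0.23 for Mef2c (edgeR adjusted p = 0.663) and 0.15 for Nfatc2 (edgeR adjusted p = 0.628). By CPM, Mef2c was highest in the library with most granule cell marker CPM and lowest in the library with least, though not in WT_S6. These libraries were 16 and 20 in CnB1KO_SD6, 8 and 10 in WT_SD6, and 14 and 13 in CnB1KO_S6. By FPKM, Mef2c was highest in CnB1KO_S6 in library 11 (10.8, against 10.5 in library 14). With a granule cell score as a covariate its log2 change was −0.25 (edgeR adjusted p = 0.045), and that of Nfatc2 was 0.18 (edgeR adjusted p = 0.0772). Crtc1, a CREB coactivator that calcineurin sends to the nucleus, stood just outside with a log2 change of −0.26 (95% interval −0.41 to −0.11, edgeR adjusted p = 0.0513). Tfeb, a transcription factor of the same list, came next and went the other way (log2 change 0.22, 95% interval 0.07 to 0.36, edgeR adjusted p = 0.079).

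By role, the 11 measured transcription factors and coactivators had a median averaged log2 change of −0.10, against 0.01 over all genes tested. Their values ran from −0.37 to 0.23, with 4 above 0 and 7 below. The median was 0.02 for the 6 other substrates, such as the endocytic proteins encoded by Dnm1 and Amph, and 0.00 for the 4 kinases that oppose calcineurin on NFAT. In the last 2 groups none passed.

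The genes whose pattern over the 19 libraries was most like that of Ppp3r1 were found by Pearson correlation of log2 CPM among 13272 genes. They were Rps15a, a ribosomal protein gene (r = 0.914), Uba2, a subunit of the SUMO-activating enzyme (0.892), Bex1 (0.868), Nemf, a factor of ribosome quality control (0.844), and Ssr1, a subunit of the translocon-associated complex (0.841). The libraries share group, depth and tissue make-up, so these values are a description. Genes chosen by likeness to Ppp3r1 tend to share its genotype difference, so their own changes in CnB1KO are no separate evidence of one. Rps15a had an averaged log2 change in CnB1KO of −0.17 (edgeR adjusted p = 0.0281) and Nemf −0.11 (edgeR adjusted p = 0.0437). Bex1 had −0.22 (edgeR adjusted p = 0.0683), Uba2 −0.08 (edgeR adjusted p = 0.116) and Ssr1 −0.07 (edgeR adjusted p = 0.112).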

How the data were processed

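Poly(A) RNA of locus coeruleus from 19 mouse samples was sequenced without strand information, per the labels' protocols. The authors deposited a table of whole-number counts for 14443 genes, and 4 tables of FPKM, each for 1 group, so levels set across groups assume like processing. Tools named in the submitters' processing notes were HTSeq 2.0.4, StringTie 2.2.1, SAMtools 1.6, Picard 2.18.29, Trim Galore 0.6.10 and FastQC 0.12.1, with the build GRCm38; an aligner was not given in the sources used here. Every gene had at least 381 counts summed over all libraries.

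TMM-scaled counts were compared in R 4.3.3 with edgeR 4.0.16 (quasi-likelihood F test, 2-sided, Benjamini-Hochberg over all genes, threshold 0.05). All 19 libraries entered 1 fit of the 4 groups with 15 residual degrees of freedom and no covariate. The 7 comparisons were CnB1KO against WT after deprivation, after sleep and averaged, deprivation against sleep in CnB1KO, in WT and averaged, and the interaction. Intervals of 95% come from the fitted standard error. Deposited FPKM were tested with limma 3.58.1 on log2(FPKM + 1) for 18734 symbols with at least 1 FPKM in 4 libraries; DESeq2 1.42.0, limma voom, other normalizations and filters, covariates and left-out libraries were alternatives. Positions are from GENCODE M21. Scripts were tested on simulated data.

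The 8 genes and all gene lists were chosen with earlier results of these data known. Named were the 8 genes, pathway genes with an adjusted p under 0.05, and the 5 genes most like Ppp3r1. Crtc1 and Tfeb were named beyond this rule as next in adjusted p, and Dnm1 and Amph as examples of a role. Of the pathway list, 1 role group is not reported here. Library totals ran from 3887298 to 7903253. The p-values from edgeR set differences against the spread among libraries within groups, estimated for each gene over all 4 groups together.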

Additional observations from a re-analysis of the deposited data

Results flagged for a closer look

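In 84 groups of 4 or 5 libraries, 10 held a library whose gap to its nearest neighbour was large for the range of its group by Dixon's test; chance gives about 1 in 20. Library 13 of CnB1KO_S6 accounted for 4 of them: Ppp3r1 at 152 CPM (120 to 127 in the others) and at 55.4 FPKM, Ppp3cb at 242 CPM (at most 201 in the others), and Mef2c at 4.80 FPKM. The others were single values. Ppp3cb was 58.6 FPKM in CnB1KO_SD6 library 19, below the rest of its group. Ppp3cc was 23.9 CPM in WT_S6 library 4, and Rcan1 was 21.3 FPKM in WT_S6 library 3, both the lowest of that group. Akap5 was 28.0 CPM in WT_SD6 library 8, against at most 43.9 CPM. Library 2 of WT_S6 was apart in Mef2c, at 46.3 CPM, and in Nfatc2, at 68.8 CPM.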

How the results depend on the processing

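Ppp3r1 kept its lower averaged level in CnB1KO under all 34 alternatives (log2 change −0.31 to −0.16) and was called in 32, with the exceptions of the oligodendrocyte and endothelium scores, where 0 of the 8 genes passed. Leaving out 1 library at a time gave 1 to 2 genes called in that comparison, 2 without CnB1KO_SD6 library 16. After sleep, where 0 passed, 1 (Ppp3r1) did with upper quartile scaling, DESeq2, the library total, a neuron score and each limma fit on FPKM, and 0 to 1 with a library left out. After deprivation 1 (Ppp3r1) passed with the library total and with a neuron score. Over all genes, the count for CnB1KO against WT averaged (447) ran from 8 with the endothelium score to 1088 without CnB1KO_SD6 library 16; for CnB1KO against WT after deprivation (19) it ran from 4 to 220 and after sleep (7) from 3 to 19. The endothelium score was chosen after seeing the data. No paired analysis was possible because the table columns carry running library numbers, not the replicate numbers of the labels. Depth limits the low genes most: Ppp3cc had 102 to 268 counts per library.

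Of 2004 gene values under all alternatives 1832 kept their direction and their side of the threshold. A call was lost in 46 (Mef2c 23, Nfatc2 21 and Ppp3r1 2, all averaged over sleep states) and gained in 11 (Ppp3r1 8 after sleep and 2 after deprivation, and Rcan1 1). A further 115 changed sign, all for values that did not pass and lay between −0.083 and 0.085 in edgeR. The limma fits with and without a filter gave the same values. They are log2 changes, each after the value from edgeR in parentheses, and the cause was not tested. For CnB1KO against WT after deprivation, Ppp3ca (−0.042) had 0.015 with a noradrenergic score, 0.00080 with an endothelium score and −0.10 to 0.011 with 1 library left out. Ppp3cb (0.039) had −0.0084 with the library total, −0.0037 with an oligodendrocyte score, −0.011 with a neuron score, −0.025 with limma on log2(FPKM + 1) and −0.025 with limma on log2(FPKM + 0.1). Rcan2 (0.078) had −0.060 with an oligodendrocyte score. Rcan3 (−0.067) had 0.024 with an endothelium score. After sleep, Ppp3cb (−0.0011) had 0.0018 with limma voom, 0.00094 with a noradrenergic score, 0.067 with an endothelium score and −0.064 to 0.016 with 1 library left out. Rcan3 (−0.083) had 0.043 with an endothelium score. Akap5 (−0.039) had 0.069 with an endothelium score and −0.077 to 0.015 with 1 library left out. Averaged over sleep states, Ppp3cb (0.019) had −0.028 with the library total, −0.010 with an oligodendrocyte score, −0.030 with a neuron score, −0.033 with limma on log2(FPKM + 1), −0.034 with limma on log2(FPKM + 0.1) and −0.016 to 0.032 with 1 library left out. Ppp3cc (0.0039) had −0.0012 with RLE scaling, −0.0021 with a minimum of 10 CPM in 4 libraries, −0.0011 with DESeq2, −0.010 with a granule cell score, −0.011 with an oligodendrocyte score, −0.035 with limma on log2(FPKM + 1), −0.037 with limma on log2(FPKM + 0.1), −0.030 with an endothelium score and −0.014 to 0.023 with 1 library left out. Rcan2 (0.085) had −0.0092 with an oligodendrocyte score. Rcan3 (−0.075) had 0.034 with an endothelium score. For deprivation in CnB1KO, Ppp3ca (0.015) had −0.018 to 0.070 with 1 library left out. Rcan1 (0.022) had −0.0017 with a granule cell score and −0.015 to 0.052 with 1 library left out. Rcan2 (0.046) had −0.0048 to 0.12 with 1 library left out. For deprivation in WT, Ppp3ca (−0.026) had 0.013 with an oligodendrocyte score and −0.080 to 0.033 with 1 library left out. Ppp3cb (−0.012) had 0.00054 with the library total, 0.040 with an oligodendrocyte score, 0.0021 with a neuron score, 0.012 with an endothelium score and −0.038 to 0.019 with 1 library left out. Rcan1 (0.050) had −0.0063 to 0.093 with 1 library left out. Akap5 (0.080) had −0.042 with an oligodendrocyte score. With both genotypes averaged, Ppp3r1 (−0.021) had 0.012 with an oligodendrocyte score, 0.0017 with an endothelium score and −0.037 to 0.0082 with 1 library left out. Ppp3ca (−0.0057) had 0.0043 with the library total, 0.00072 with a granule cell score, 0.023 with an oligodendrocyte score, 0.0077 with a neuron score, 0.016 with limma on log2(FPKM + 1), 0.016 with limma on log2(FPKM + 0.1), 0.0070 with an endothelium score and −0.032 to 0.024 with 1 library left out. Ppp3cb (0.0085) had −0.0064 with limma on log2(FPKM + 1), −0.0065 with limma on log2(FPKM + 0.1) and −0.0050 to 0.035 with 1 library left out. Akap5 (−0.0054) had 0.0019 with a noradrenergic score, 0.013 with limma on log2(FPKM + 1), 0.013 with limma on log2(FPKM + 0.1), 0.015 with an endothelium score and −0.036 to 0.045 with 1 library left out. In the interaction, Ppp3ca (0.042) had −0.018 to 0.10 with 1 library left out. Rcan1 (−0.028) had −0.071 to 0.028 with 1 library left out. Rcan2 (−0.015) had −0.066 to 0.065 with 1 library left out. Rcan3 (0.015) had −0.010 with a noradrenergic score, −0.040 with limma on log2(FPKM + 1), −0.041 with limma on log2(FPKM + 0.1), −0.019 with an endothelium score and −0.020 to 0.048 with 1 library left out.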

Other observations

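Within groups, the log2 count of Rcan2 had a slope of 0.66 on the log2 library total, Ppp3r1 0.73, Ppp3ca 0.75 and Ppp3cb 0.79. The slope was 1.04 for Rcan1, 1.06 for Rcan3, 1.15 for Ppp3cc and 1.24 for Akap5. The 4 genes of highest FPKM were thus those with slopes below 1, though by mean CPM Rcan3 stood above Ppp3r1.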
